A study of Mus musculus with 11 samples.

Results

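The comparison described here sets microglia kept for 6 h with untreated cortical neurons against microglia kept alone. It used every library of those 2 treatment groups, 3 with untreated neurons and 4 without neurons, which is 7 of the 11 libraries of the series. All cells came from C57BL/6 mice. Microglia were grown from pups 0 to 3 days old, in DMEM with heat-inactivated calf serum, for 7 to 10 days. The neurons were primary cortical cells at day 14 in vitro. Neither group carried a transgene or received fibrils. In the remaining 4 libraries the same kind of neuron had taken up 0.1 µM fluorescent α-synuclein fibrils for 16 h and had been washed before the microglia were added; those libraries entered the fit, and their values are set beside those of the other groups in places. The labels do not say how microglia were recovered from the neurons, what was done to the microglia kept alone during the 6 h, or whether a group's replicates had independent origins; the p-values therefore measure the spread between these libraries, which may be technical.

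Microglia are the resident macrophages of the brain. In the brain they are held in a surveying state by neuronal and glial signals, among them fractalkine, which acts on the receptor CX3CR1, and transforming growth factor β (TGF-β), whose receptors phosphorylate SMAD factors. In serum culture without other brain cells this state is largely lost, and homeostatic genes such as P2ry12 and Tmem119 become weakly expressed. Microglia also carry Toll-like receptors and nucleic acid sensors that lead to NF-κB target genes, such as cytokines, and to type I interferon target genes, whose promoters often hold an interferon-stimulated response element (ISRE).

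The 7 libraries held between 10700940 and 16802451 counts. Of these counts, the share of Rn45s, the ribosomal RNA precursor, was 19.4% ± 4.45 (SD, n = 4) alone and 12.6% ± 2.69 (SD, n = 3) with neurons (exact two-sided permutation test over libraries, p = 0.0857; 4 against 3 libraries cannot go below 0.0286). With Rn45s left out of the scaling, all 72 calls below were kept. The number of genes with a count was 10553.5 ± 875 alone and 9947 ± 230 with neurons (exact permutation test, p = 0.343). Summed levels of 20 pan-microglia and macrophage markers, in counts scaled to a library of 1000000 (CPM), ran from 19718 to 21333 alone and from 23610.5 to 26114 with neurons, and none of the 20 passed the test. The named pan-microglia genes with the smallest p were Itgam, an integrin of the complement receptor, at 359, 257, 420.0 and 181 CPM alone and 726, 368 and 567 CPM with neurons, and C1qc, a chain of complement C1q, at 2325 to 3189 CPM alone and 3605 to 4900.4 CPM with neurons (adjusted p = 0.389 and 0.393).

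Of 16934 genes in the table, 11276 passed the filter on low counts and were tested. A total of 72 differed between the groups at an adjusted p under 0.05 (edgeR quasi-likelihood test, Benjamini-Hochberg adjustment over all genes tested), which is 0.639% of those tested. Of these, 52 were higher with neurons (0.461%) and 20 were lower (0.177%). In all 72 the CPM ranges of the 2 groups did not overlap, a state that 1167 genes (10.3%) showed in all, 553 higher (4.9%) and 614 lower (5.45%). Over all genes tested 47.7% had a positive log2 fold change and the median was −0.05; the TMM scaling itself sets the typical gene near 0. The calls lay among the better measured genes: of 1620 genes averaging 100 CPM or more, 27 rose and 11 fell (2.35% in all), against 2 of the 3731 with a mean under 10 CPM. Libraries of a group differed widely from each other, with a biological coefficient of variation of 1.15, and the median standard error of a log2 fold change was 0.61 among genes of at least 10 CPM. Other tests gave other numbers: DESeq2 called 171 genes higher and 282 lower, and limma voom 88 and 51, so the excess of higher over lower calls depended on the test. Of 71 named calls, 21 held in each of 7 fits that left out 1 of the libraries, and 50 were lost in at least 1 of them. The 21 were Tgfbi, Cxcl14, Tgm2, Gpr84, Neurl3, Acod1, Pmepa1, Pik3r5, Spsb1, Slc43a2, Adgre5, Slc31a2, Sod2, Cx3cr1, Tlr2, Tnfrsf1b, N4bp1, Rsad2 and Csf2rb2 among the genes that rose, and Cdk18 and Tubb2b among those that fell. Mmp19, Nrgn, Pf4, Tmcc3, Smarcc1, Mgat5, Ankrd13b, Dkk2 and Rgs7bp were lost in all 7 fits, and none of the 71 changed direction in any setting.

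**Figure D1:**
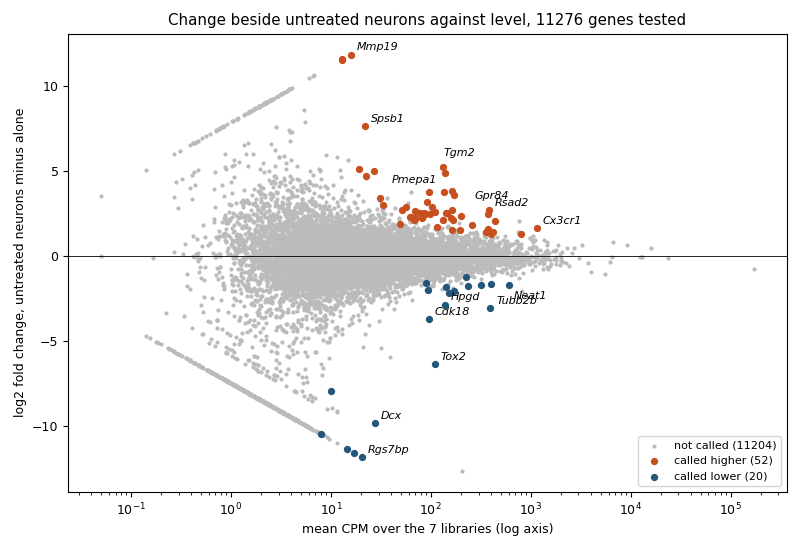
Each point is 1 of the 11276 genes tested. The horizontal axis is its mean CPM over the 7 libraries on a log axis and the vertical axis its log2 fold change, untreated neurons minus alone; orange points are the 52 genes called higher, dark blue points the 20 called lower, and the straight lines of grey points are genes with no count in 1 of the groups.

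The interferon-related genes were a group in which many members had higher values with neurons, and the promoters of 3 that rose are shown first because each holds an ISRE core. The motifs were searched on both strands in RefSeq windows of build GRCm38.p6. Each window reaches from 250 bases before to 50 bases after a start of the gene. For Ifit3 the start used lies inside the gene's range, chr19:34583119-34588982, and so does the whole window. Match positions are counted from the start that each window uses. The ISRE core was taken as GAAA, any 2 bases and GAAA, and a κB element was searched by its consensus. Capitals mark the matches, which here read as the reverse complement for the ISRE core.
Rsad2 (viperin), chr12:26456403-26456702, minus strand: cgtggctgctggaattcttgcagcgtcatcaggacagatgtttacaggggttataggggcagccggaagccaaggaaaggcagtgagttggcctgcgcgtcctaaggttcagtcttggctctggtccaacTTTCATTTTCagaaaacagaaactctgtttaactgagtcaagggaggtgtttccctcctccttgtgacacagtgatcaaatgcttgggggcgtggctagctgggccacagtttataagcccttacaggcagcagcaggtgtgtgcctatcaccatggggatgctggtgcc
Ifit3, chr19:34583279-34583578, plus strand: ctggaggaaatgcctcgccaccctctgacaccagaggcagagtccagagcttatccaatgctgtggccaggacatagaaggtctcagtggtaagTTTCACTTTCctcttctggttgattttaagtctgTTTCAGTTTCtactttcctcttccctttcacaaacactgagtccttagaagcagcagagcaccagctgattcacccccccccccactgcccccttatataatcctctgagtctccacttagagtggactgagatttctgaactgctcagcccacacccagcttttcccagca
Gbp2, chr3:142620413-142620712, plus strand: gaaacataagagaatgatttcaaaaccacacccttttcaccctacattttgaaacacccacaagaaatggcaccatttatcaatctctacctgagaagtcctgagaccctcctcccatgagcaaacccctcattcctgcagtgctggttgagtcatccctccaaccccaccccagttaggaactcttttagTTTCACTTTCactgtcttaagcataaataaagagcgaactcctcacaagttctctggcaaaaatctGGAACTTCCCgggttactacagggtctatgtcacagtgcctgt
The ISRE core began 120 bases before the start in Rsad2, 156 and 122 bases before it in Ifit3 and 59 bases before it in Gbp2, and the second match in Gbp2, GGAACTTCCC, was a κB element just after the start. A promoter window was found for 9083 of the 11276 genes tested, and 352 of them (3.88%) held the ISRE core; over all 32851 windows the share was 3.44%. Of the 52 genes called higher, 43 had a window and 13 of these (30.2%) held the core, against 1 of the 18 genes called lower that had a window. The κB consensus was found for 12.3% of the genes tested, for 10 of the 43 called higher (23.3%) and for 2 of the 18 called lower. Of the 50 antiviral effectors tested, 41 had a window and 22 of these (53.7%) held the core; the window of Oasl1, which rose, held none. A match is a description of letters and not a binding site.

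Interferon-induced antiviral effectors, are the products that block viral replication. Of 50 such genes tested, 6 rose and none fell. Among the 47 with at least 10 CPM, 45 had a positive log2 fold change, with a median of 1.52. Over the 7545 genes of that level, 47.9% were positive and the median was −0.04. Of the 6 calls, only that of Rsad2 held in each fit that left out 1 library. Ifit3, Ifit3b, Gbp2, Mx1 and Oasl1 each lost theirs without co-culture library 1, without alone library 2 and without alone library 4. The same held for Ddx58, Ifi203, Phf11b and Cxcl10, described below. Rsad2, which makes an antiviral nucleotide, stood at 185, 94.8, 117 and 52.2 CPM in the 4 libraries of microglia alone and at 1044, 471 and 693 CPM with neurons. Every co-culture library was above every library of microglia alone, and the log2 fold change was 2.71 (SE 0.49, adjusted p = 0.00798). Ifit3, a tetratricopeptide protein that binds other IFIT proteins, stood at 127, 54.6, 69.2 and 39.6 CPM alone and at 597, 235 and 286 CPM with neurons, a log2 fold change of 2.36 (SE 0.47, adjusted p = 0.0165). Its near copy Ifit3b, with which it may share reads, went from 25.7 ± 11.1 CPM (SD, n = 4) to 149 ± 101 CPM (SD, n = 3), a log2 fold change of 2.54 (adjusted p = 0.0436). The window of Ifit3b held 2 ISRE cores too.

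The guanylate-binding protein gene Gbp2, which acts against intracellular pathogens, had 7.90, 3.07, 16.6 and 5.93 CPM alone and 81.0, 69.1 and 51.6 CPM with neurons. These 3 co-culture values were close to each other, and the log2 fold change was 3.00 (SE 0.63, adjusted p = 0.0277). Mx1, an interferon-induced gene of the dynamin-like GTPases, had 24.1, 12.2, 9.28 and 13.6 CPM alone and 165, 78.3 and 56.1 CPM with neurons. Its log2 fold change was 2.75 (SE 0.62, adjusted p = 0.0454). Oasl1, of the oligoadenylate synthetase family, was barely counted alone, at 4.07, 2.57, 0 and 0.835 CPM, and had 86.2, 26.5 and 38.1 CPM with neurons (log2 fold change 4.74, SE 1.10, adjusted p = 0.0494). Gbp2, Mx1 and Oasl1 belong to families with similar members, and reads may be split among them.

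Upstream of these effectors, 3 of 22 nucleic acid sensors and adaptors rose and none fell, and 18 of the 21 with at least 10 CPM had a positive log2 fold change (median 0.77). Ddx58, which encodes the RNA sensor RIG-I, stood at 25.3, 21.3, 46.6 and 29.5 CPM alone and at 272, 97.2 and 77.6 CPM with neurons (log2 fold change 2.28, adjusted p = 0.0411). Ikbke, the kinase IKKε that activates interferon regulatory factors, stood at 71.9 and 87.4 CPM in libraries 3 and 4 of microglia alone, at 13.8 CPM or less in the other 2, and at 259, 255 and 289 CPM with neurons (log2 fold change 2.54, adjusted p = 0.0277). The 4 libraries without neurons differed more for Ikbke than the 3 with them. Ifi203, of a clustered family of DNA-binding proteins with similar members, went from 26.1 ± 10.6 CPM (SD, n = 4) to 125 ± 53.5 CPM (SD, n = 3), with an adjusted p of 0.0488. The endosomal RNA sensor gene Tlr7 had 40.6 to 128 CPM alone and 18.9 to 38.4 CPM with neurons, and it did not pass the test (log2 fold change −1.67, adjusted p = 0.251).

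Among 21 interferon receptors, JAK-STAT members and interferon regulatory factors none passed, and 13 of the 20 with at least 10 CPM had a positive value (median 0.42). Irf7, which amplifies interferon production, stood at 31.0, 25.3, 23.9 and 57.3 CPM alone and at 130.3, 108 and 102 CPM with neurons, ranges that do not overlap, with a log2 fold change of 1.72 and an adjusted p of 0.0614. Phf11b and N4bp1 belonged to no list of this report. Phf11b, of a locus with near copies, had 23.6, 16.0, 42.1 and 26.5 CPM alone and 152, 109 and 117 CPM with neurons (log2 fold change 2.22, adjusted p = 0.0159). N4bp1, which encodes an RNA-cutting protein, had 35.6 to 60.9 CPM alone and 141 to 312 CPM with neurons (log2 fold change 2.17, adjusted p = 0.00724).

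Genes of the TGF-β pathway showed a few large rises rather than a shift of the whole list. Of 34 ligands, receptors, SMADs, inhibitors and targets tested, 5 rose and none fell, 4 of which are named here; 13 of the 23 with at least 10 CPM had a positive value, with a median of 0.18. Tgfbi, a matrix protein named for its induction by TGF-β, had 20.3, 9.90, 21.8 and 30.3 CPM alone and 165, 358 and 341 CPM with neurons. It had the smallest adjusted p of the 72 calls (3.66e-05), with a log2 fold change of 3.80 (SE 0.39). Pmepa1 (GRCm38.p6 chr2:173224458-173276731), whose product holds back receptor-activated SMADs, had 46.4, 30.3, 18.7 and 2.34 CPM alone and 283, 488 and 279.9 CPM with neurons. The lowest co-culture library was well above the highest library of microglia alone, and the log2 fold change was 3.84 (SE 0.60, adjusted p = 0.00240).

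Skil, the gene of the SMAD-binding repressor SnoN, stood at 36.7, 8.51, 26.6 and 18.4 CPM alone and at 70.4, 110.0 and 162 CPM with neurons (log2 fold change 2.34, SE 0.48, adjusted p = 0.0220). Spsb1, a ubiquitin ligase adaptor that acts on the TGF-β receptor, was at 0, 0.396, 0 and 0.584 CPM alone and at 57.2, 81.5 and 15.1 CPM with neurons (log2 fold change 7.67, SE 1.21, adjusted p = 0.00250). The size of that fold rests on a handful of counts in the libraries without neurons. The receptor gene Tgfbr1 had 23.9, 22.6, 72.5 and 72.4 CPM alone and 119, 139 and 138 CPM with neurons, ranges apart, but it did not pass (log2 fold change 1.46, adjusted p = 0.201). Smad7, the inhibitory SMAD and a direct target of the pathway, had 0 to 12.4 CPM alone and 1.75 to 11.1 CPM with neurons, and its ranges overlapped (adjusted p = 0.997).

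Matrix proteins and proteases overlapped with that list. Of 26 tested, 5 rose and none fell, and 12 of the 21 with at least 10 CPM had a positive value (median 0.20). Mmp14, a membrane-anchored collagenase, had 42.7, 52.8, 59.1 and 39.0 CPM alone and 244, 75.1 and 626 CPM with neurons. The 3 co-culture values were spread from just above the libraries of microglia alone to far above them (log2 fold change 2.70, adjusted p = 0.0150). Mmp19, another secreted metalloprotease, had no count in any of the 4 libraries alone and 31.9, 27.9 and 51.1 CPM with neurons, at least 141-fold higher against a floor of 3 counts per library (adjusted p = 0.0422). Olfml3, a secreted protein listed both with the matrix and with homeostatic microglia genes, had 1.56, 3.27, 0 and 0 CPM alone and 29.8, 73.3 and 25.4 CPM with neurons (log2 fold change 5.15, SE 1.08, adjusted p = 0.0268). Tgm2, the protein cross-linking enzyme transglutaminase 2, rose from 19.8, 0, 6.45 and 5.26 CPM to 224, 318 and 355 CPM (log2 fold change 5.24, SE 0.75, adjusted p = 0.00153). Tgm2 is on the list of alternative activation genes, of which 2 of 11 tested rose; the other one was Il4ra.

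**Figure D2:**
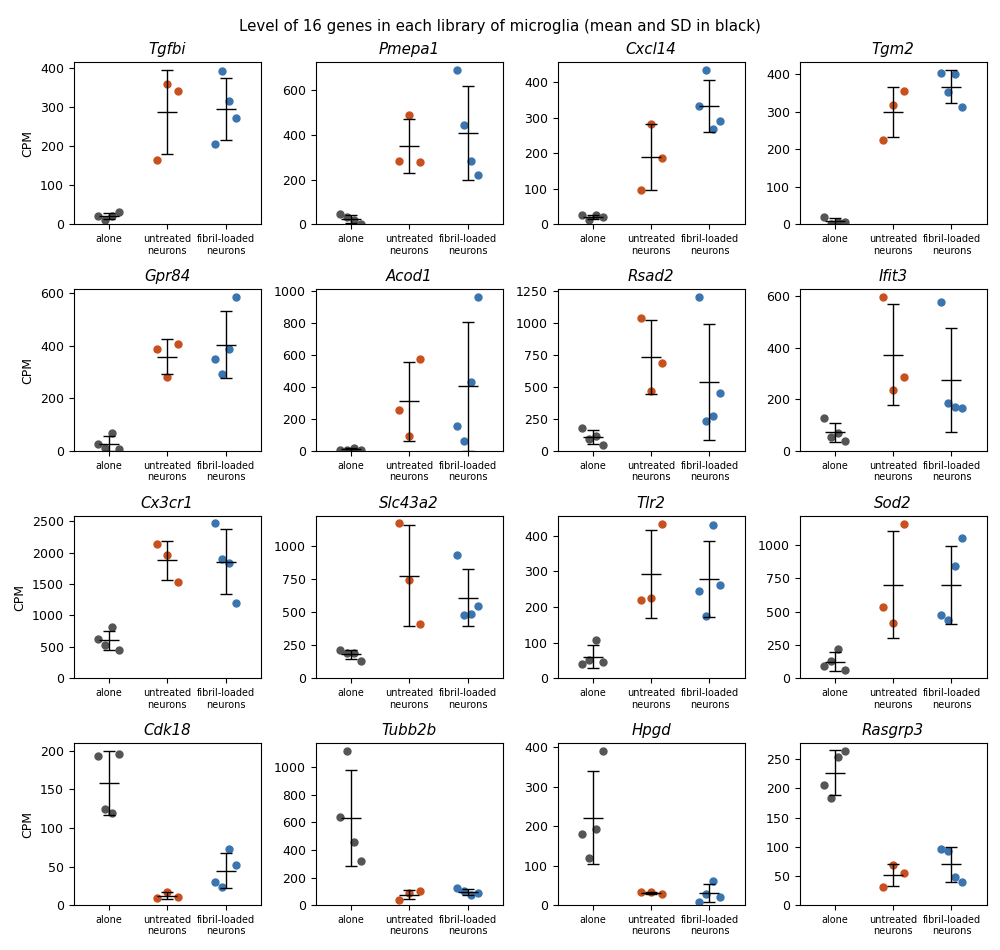
CPM of 16 called genes in each library (points) of microglia alone (grey, 4), with untreated neurons (orange, 3) and with fibril-loaded neurons (blue, 4); black marks are the mean and SD, and each vertical axis starts at 0. In all 16 panels the orange points lie wholly above or wholly below the grey ones, as for Tgfbi, at 165 to 358 CPM against 9.90 to 30.3 CPM.

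Of 27 homeostatic microglia genes 3 rose and none fell, namely Cx3cr1, Olfml3 and Pmepa1, and 20 of the 24 with at least 10 CPM had a positive log2 fold change (median 0.59). Cx3cr1, the receptor of the neuronal chemokine fractalkine, had 619.5, 524, 812 and 446 CPM alone and 2141, 1957 and 1533 CPM with neurons. It was among the most abundant of the genes that rose, with a log2 fold change of 1.64 (SE 0.28, adjusted p = 0.00613). The purinergic receptor gene P2ry12 remained scarcely counted in both groups, at 0, 0.891, 8.22 and 0 CPM alone and 16.1, 10.6 and 2.37 CPM with neurons (adjusted p = 0.936). Tmem119, another gene used to mark brain microglia, had 26.7, 3.66, 6.81 and 0 CPM alone and 13.6, 33.2 and 75.7 CPM with neurons, overlapping ranges (adjusted p = 0.536). Neither of these homeostatic markers passed, and P2ry12 was at or near the floor of detection in the libraries of microglia alone other than the third. Csf1r, the receptor for the survival factor of microglia, had 1426 ± 439 CPM (SD, n = 4) alone and 1629.7 ± 75.1 CPM (SD, n = 3) with neurons (adjusted p = 0.978), and C1qa had 2113 to 2611 CPM alone and 2679 to 3708 CPM with neurons (adjusted p = 0.545).

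Cytokines and inflammatory enzymes had the highest median of the larger lists. Of 33 tested, 5 rose and none fell, and 19 of the 23 with at least 10 CPM had a positive value, with a median of 2.44. The members that rose were enzymes and a receptor rather than secreted cytokines. Acod1 (GRCm38.p6 chr14:103047012-103056573), which makes itaconate from an intermediate of the citric acid cycle, had 6.18, 4.95, 20.6 and 10.3 CPM alone and 257, 97.8 and 577 CPM with neurons (log2 fold change 4.89, SE 0.74, adjusted p = 0.00173). Gpr84, a receptor for medium-chain fatty acids, had 28.2, 11.9, 69.1 and 6.68 CPM alone and 387, 283 and 406 CPM with neurons (log2 fold change 3.63, SE 0.53, adjusted p = 0.00153). Sod2, mitochondrial superoxide dismutase, had 89.4, 127, 219 and 60.3 CPM alone and 536, 411 and 1159 CPM with neurons (log2 fold change 2.50, SE 0.43, adjusted p = 0.00559). Acod1 and Sod2 were both highest in the third co-culture library.

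The secreted cytokines themselves did not pass. Tnf had 49.0, 28.3, 77.9 and 71.0 CPM alone and 128, 50.7 and 186 CPM with neurons, with the second co-culture library inside the range of microglia alone (log2 fold change 1.10, adjusted p = 0.533). Il1b, the precursor of interleukin 1β, had 0, 14.6, 19.0 and 4.84 CPM alone and 45.3, 4.03 and 139 CPM with neurons (adjusted p = 0.595). Il6 had no count in 6 of the 7 libraries and 2.72 CPM in the third co-culture library. Tnfaip2, an actin-linked protein induced by tumour necrosis factor and known from tunnelling nanotubes, had 475, 443, 511 and 425 CPM alone and 1956, 403 and 1082 CPM with neurons, where the second library was below all those of microglia alone (log2 fold change 1.31, adjusted p = 0.256).

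None of 30 NF-κB subunits, kinases and feedback inhibitors passed, while 24 of the 26 with at least 10 CPM had a positive value (median 1.07). Nfkbia, the inhibitor IκBα that NF-κB itself induces, had 380.4, 405, 713 and 221 CPM alone and 1278, 722 and 1478 CPM with neurons. Its ranges were narrowly apart, 713 against 722 CPM (log2 fold change 1.43, adjusted p = 0.0578). Tnip1, an adaptor of the A20 deubiquitinase, had 22.8 to 43.2 CPM alone and 55.5 to 150.4 CPM with neurons (log2 fold change 1.41, adjusted p = 0.201). The κB consensus was found in the promoter windows of 12 of 23 genes on this list (52.2%), against 12.3% of the genes tested. This share describes the list and not a change with neurons.

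Of 22 Toll-like receptors, co-receptors and adaptors, Tlr2 alone passed, and 16 of the 20 with at least 10 CPM had a positive value (median 0.63). Tlr2, a receptor for lipoproteins and other ligands at the cell surface, had 40.0, 50.4, 109 and 44.3 CPM alone and 219, 225 and 435 CPM with neurons (log2 fold change 2.27, SE 0.39, adjusted p = 0.00613). Its promoter window held 3 matches to the κB consensus. Unc93b1, the chaperone of the endosomal Toll-like receptors, had 258, 313, 466 and 99.2 CPM alone and 642, 558 and 611 CPM with neurons without passing (log2 fold change 1.09, adjusted p = 0.213).

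Of 21 chemokines and chemokine receptors 3 rose and none fell: Cxcl10, Cxcl14 and Cx3cr1. Of the 17 with at least 10 CPM, 14 had a positive value, with a median of 1.26. Cxcl10, an interferon-induced attractant of T cells, had 2.81, 12.2, 39.8 and 3.26 CPM alone and 417, 48.4 and 146 CPM with neurons. The fold rested on unequal co-culture values, the second of them close to the highest library of microglia alone (log2 fold change 3.81, SE 0.79, adjusted p = 0.0260). Cxcl14, a chemokine of epithelial and brain tissue, had 20.3 ± 6.03 CPM (SD, n = 4) alone and 96.5, 282 and 188 CPM with neurons (log2 fold change 3.21, SE 0.37, adjusted p = 1.41e-04). The monocyte attractant Ccl2 had 6.65, 14.9, 53.1 and 0.668 CPM alone and 48.7, 11.5 and 30.9 CPM with neurons, with overlapping ranges (adjusted p = 0.974). Cxcl9, another interferon-induced chemokine, was at 0 to 6.34 CPM alone and 0 to 15.2 CPM with neurons (adjusted p = 0.988). Pf4, platelet factor 4 and a marker of border macrophages, rose from 141, 299, 283 and 238 CPM to 578, 679 and 558 CPM (log2 fold change 1.33, SE 0.31, adjusted p = 0.0488).

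Other genes that rose encode receptors; except for Il4ra they belonged to no list, and they are described one by one. Csf2rb, the β chain shared by the receptors for GM-CSF, interleukin 3 and interleukin 5, had 263, 109, 211 and 236 CPM alone and 765, 404 and 512 CPM with neurons (log2 fold change 1.45, adjusted p = 0.0422). Its mouse near copy Csf2rb2 had 32.7 ± 24.3 CPM (SD, n = 4) alone and 231, 130.0 and 191 CPM with neurons (log2 fold change 2.49, adjusted p = 0.00895). Reads of this pair may be shared. Tnfrsf1b, the second receptor for tumour necrosis factor, had 109, 120.3, 174 and 87.3 CPM alone and 501, 283 and 543 CPM with neurons (log2 fold change 1.85, SE 0.32, adjusted p = 0.00679). Il4ra, the interleukin 4 receptor chain, had 31.9 to 97.9 CPM alone and 142 to 219 CPM with neurons (log2 fold change 1.75, adjusted p = 0.0371). Il21r, the receptor for interleukin 21, had 13.4 to 42.5 CPM alone and 203, 55.8 and 109 CPM with neurons (log2 fold change 2.13, adjusted p = 0.0391). Adgre5, the adhesion receptor CD97, rose from 3.99, 5.74, 6.90 and 7.43 CPM to 69.5, 33.9 and 92.1 CPM (log2 fold change 3.44, SE 0.56, adjusted p = 0.00370). F11r, the junctional adhesion molecule A, rose from 32.1, 7.33, 3.63 and 16.3 CPM to 124, 127 and 80.5 CPM (log2 fold change 2.89, adjusted p = 0.0222).

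Slc43a2, a neutral amino acid transporter, had 211, 191, 190.2 and 132 CPM alone and 1169.6, 745 and 406 CPM with neurons (log2 fold change 2.09, SE 0.34, adjusted p = 0.00324). Slc7a8, a second transporter of neutral amino acids, had 6.51 to 50.6 CPM alone and 93.4, 116 and 138 CPM with neurons (log2 fold change 2.30, adjusted p = 0.0454). Slc31a2, a copper transporter, rose from 51.9, 66.3, 104 and 48.0 CPM to 300.1, 176 and 412 CPM (log2 fold change 2.13, adjusted p = 0.00417). Glul, which makes glutamine from glutamate, was abundant in both groups, at 459, 613, 457 and 458 CPM alone and 1495, 1389.6 and 744 CPM with neurons (log2 fold change 1.28, adjusted p = 0.0422). Purine handling was represented by Pnp, purine nucleoside phosphorylase, at 109 ± 35.0 CPM (SD, n = 4) alone and 317 ± 28.2 CPM (SD, n = 3) with neurons (adjusted p = 0.0159), and by Adssl1, an adenylosuccinate synthase, at 4.17 to 50.8 CPM alone and 77.6 to 236 CPM with neurons (adjusted p = 0.0454). Nadk, which phosphorylates NAD, had 72.0 to 136 CPM alone and 178 to 319 CPM with neurons (log2 fold change 1.53, adjusted p = 0.0355).

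Of 20 prostaglandin and leukotriene enzymes and receptors tested, 2 rose and 1 fell, and 10 of the 15 with at least 10 CPM had a positive value (median 0.32). Ptgs1, the cyclooxygenase COX-1 that starts prostaglandin synthesis, had 0, 0, 4.86 and 2.59 CPM alone and 32.5, 53.9 and 96.4 CPM with neurons (log2 fold change 5.02, SE 1.16, adjusted p = 0.0488). Hpgd (GRCm38.p6 chr8:56294552-56321046), the dehydrogenase that inactivates prostaglandins, had 180.1, 120.0, 193 and 391 CPM alone and 32.3, 32.7 and 27.7 CPM with neurons (log2 fold change −2.84, SE 0.54, adjusted p = 0.0135). The 3 co-culture values of Hpgd lay close together and far below the rest. The other member that rose was Gpr84, listed here as a receptor for fatty acids.

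The remaining genes that rose encode regulators of diverse kinds. Neurl3, a ubiquitin ligase, had 13.6, 17.6, 41.0 and 36.6 CPM alone and 237, 208 and 162 CPM with neurons (log2 fold change 2.90, SE 0.43, adjusted p = 0.00153). Pik3r5, a regulatory subunit of phosphoinositide 3-kinase γ, had 15.1, 30.2, 40.6 and 35.3 CPM alone and 186, 119 and 177 CPM with neurons (log2 fold change 2.41, SE 0.38, adjusted p = 0.00240). Sgk1, a kinase downstream of that enzyme class, had 15.8 to 46.1 CPM alone and 166, 188 and 282 CPM with neurons (log2 fold change 2.64, adjusted p = 0.0150). Spata13, an exchange factor for small GTPases, had 5.26 to 38.3 CPM alone and 109 to 169 CPM with neurons (log2 fold change 2.66, adjusted p = 0.0203). Ehd1, a protein of endosomal recycling, had 159 to 332 CPM alone and 521 to 748 CPM with neurons (log2 fold change 1.44, adjusted p = 0.0488). Ctla2b, a cysteine protease inhibitor-like gene with a near copy, had 12.6 to 89.0 CPM alone and 216 to 373 CPM with neurons (log2 fold change 2.53, adjusted p = 0.0118). Ms4a6c, a membrane-spanning gene of a family with similar members, had 128 to 229.9 CPM alone and 479.8 to 719 CPM with neurons (log2 fold change 1.62, adjusted p = 0.0150), and Tmcc3, an endoplasmic reticulum protein, had 12.7 to 29.2 CPM alone and 68.4 to 95.1 CPM with neurons (log2 fold change 1.90, adjusted p = 0.0454).

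**Figure D3:**
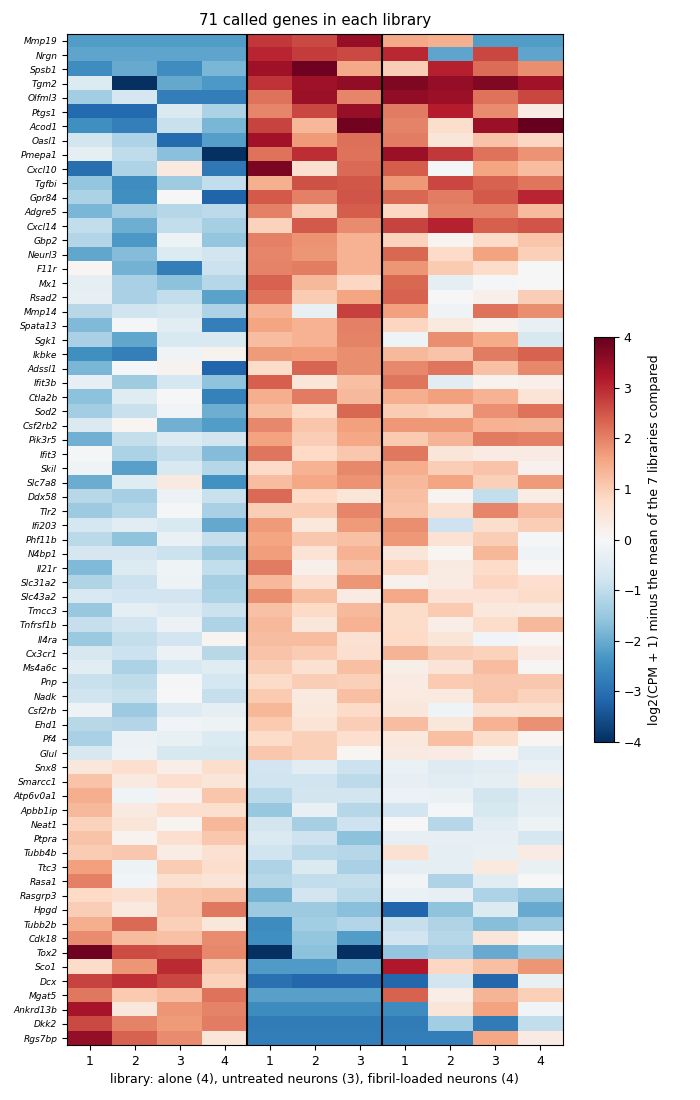
Colours give log2(CPM + 1) of 71 called genes minus the gene's mean over the 7 libraries compared, red above and blue below, with 1 column for each of the 11 libraries and genes ordered by log2 fold change. The columns of the 3 libraries with untreated neurons are mostly red for genes that rose, apart from Mmp14 in the second library, and blue for genes that fell, and those of the 4 fibril-loaded libraries show the same colours in paler form for many genes.

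Among the 20 genes that fell, regulators of small GTPases and G proteins were the list with the most calls. Its members were chosen with earlier results of these data known, so that rank is only a description. Of 31 such regulators tested, 3 fell and none rose, against 0.177% called lower among all genes tested. Of the 23 with at least 10 CPM, 19 had a negative value (median −0.69). Rasgrp3, a diacylglycerol-regulated exchange factor for Ras and Rap, had 205, 184, 254 and 264 CPM alone and 30.9, 68.5 and 55.4 CPM with neurons (log2 fold change −2.14, SE 0.40, adjusted p = 0.0118). Rasa1, which turns Ras off, had 507, 117, 198 and 180.4 CPM alone and 55.8, 63.4 and 64.5 CPM with neurons (log2 fold change −2.03, SE 0.44, adjusted p = 0.0371). The first library of microglia alone was far above the others for Rasa1. Rgs7bp, an anchor of G protein regulators that is best known from neurons, had 77.2, 34.0, 24.4 and 8.60 CPM alone and no count in the 3 co-culture libraries, at least 172-fold lower against the floor of 3 counts per library (adjusted p = 0.0488). Apbb1ip, the adaptor RIAM that links Rap to integrins, had 647, 339, 414 and 406 CPM alone and 91.2, 213 and 117 CPM with neurons (log2 fold change −1.68, SE 0.34, adjusted p = 0.0226). Apbb1ip was on no list, and neither was Spata13, an exchange factor for small GTPases that rose.

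Cdk18, a cyclin-dependent kinase of the PCTAIRE family, had 193, 125, 119 and 195 CPM alone and 8.75, 17.3 and 10.2 CPM with neurons. It had the smallest adjusted p of the genes that fell (8.55e-04) and a log2 fold change of −3.71 (SE 0.50). Tox2, an HMG-box factor of the nucleus, had 373, 154, 148 and 96.0 CPM alone and 0, 7.25 and 0 CPM with neurons (log2 fold change −6.36, SE 1.20, adjusted p = 0.0125). Neat1, the long non-coding RNA of paraspeckles, had 936, 696, 539.6 and 1243 CPM alone and 299.9, 198 and 280.1 CPM with neurons (log2 fold change −1.72, SE 0.34, adjusted p = 0.0159). Atp6v0a1, a subunit of the proton pump of lysosomes and vesicles, had 903, 289, 371 and 709.8 CPM alone and 156, 197 and 197 CPM with neurons (log2 fold change −1.63, adjusted p = 0.0371). Ptpra, a receptor tyrosine phosphatase, had 214 to 427 CPM alone and 60.8 to 131 CPM with neurons (log2 fold change −1.76, adjusted p = 0.0150). Ttc3, a ubiquitin ligase, went from 138 ± 69.1 CPM (SD, n = 4) to 35.2 ± 10.5 CPM (SD, n = 3) (adjusted p = 0.0422). Snx8, a sorting nexin, and Smarcc1, a subunit of the BAF chromatin remodeller, had the smallest falls, from 298 ± 40.5 to 127 ± 19.6 CPM and from 126 ± 33.3 to 41.6 ± 4.40 CPM (both adjusted p = 0.0488).

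Sco1, Mgat5, Ankrd13b, Dkk2 and Dcx, among the genes that fell, had almost no count with neurons and modest levels without them. Sco1, a copper chaperone of cytochrome oxidase, had 7.11, 15.6, 37.6 and 9.35 CPM alone and 0, 0 and 0.177 CPM with neurons (adjusted p = 0.0422). Mgat5, a branching enzyme of N-glycans, had 18.5, 8.32, 9.73 and 19.6 CPM alone and no count with neurons, at least 67.2-fold lower (adjusted p = 0.0422). Ankrd13b had 55.3, 6.83, 18.4 and 21.6 CPM alone and Dkk2, a Wnt antagonist, 42.5, 26.5, 21.8 and 27.8 CPM, with no count in the co-culture, at least 122-fold and 142-fold lower (adjusted p = 0.0454 and 0.0488). Dcx is described with the neuron markers. The floor behind these folds was 3 counts per library.

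Of 13 tubulin genes tested 2 fell and none rose, and 10 of the 11 with at least 10 CPM had a negative value (median −0.97). Tubb2b (GRCm38.p6 chr13:34127008-34130354), a β-tubulin isotype abundant in the developing brain, had 638, 1119, 456 and 323 CPM alone and 39.8, 88.1 and 103 CPM with neurons (log2 fold change −3.04, SE 0.43, adjusted p = 0.00153). Tubb4b, a widely expressed isotype, had 242, 253, 144 and 182 CPM alone and 67.9, 54.9 and 52.9 CPM with neurons (log2 fold change −1.81, SE 0.35, adjusted p = 0.0150). Tubb3, the isotype used to mark neurons, had 37.6, 14.2, 9.37 and 14.4 CPM alone and 0, 2.24 and 0 CPM with neurons, ranges apart without passing (adjusted p = 0.523). Tubulin isotypes are similar in sequence, and reads may be assigned to the wrong one.

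The summed level of the 34 neuron markers was 1389 to 1628 CPM in microglia alone and 686 to 940 CPM with neurons, most of it from Basp1, which had 1262 ± 142 CPM (SD, n = 4) alone and 708 ± 137 CPM (SD, n = 3) with neurons and did not pass (adjusted p = 0.186). Of 18 markers tested 1 rose and 1 fell. Dcx, a microtubule protein of migrating neurons, fell from 56.3, 66.4, 55.4 and 15.9 CPM to 0.121, 0 and 0 CPM (log2 fold change −9.84, SE 2.06, adjusted p = 0.0268). Nrgn, the postsynaptic calmodulin-binding protein neurogranin, had no count alone and 34.5, 29.0 and 26.0 CPM with neurons, at least 114-fold higher against the floor of 3 counts per library (adjusted p = 0.0488). Snap25, Nefm, Slc17a7, Thy1 and Grin1 had no count in any of the 7 libraries, and 15 of the 34 markers had none in the co-culture libraries, against 10 in microglia alone. In such bulk samples fewer cells of a type and less RNA per cell cannot be told apart, and how far neuronal RNA contributed to any result was not tested.

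No astrocyte marker passed among 10 tested; their summed level was 449 to 754.5 CPM alone and 475 to 901 CPM with neurons. Slc4a4, a bicarbonate transporter, had 0 to 1.39 CPM alone and 11.6, 0.0895 and 28.5 CPM with neurons (adjusted p = 0.661). The third co-culture library was the highest for Slc4a4. Oligodendrocyte and precursor markers summed to 189 to 329.9 CPM alone and 304 to 333 CPM with neurons, with none of 13 called; Cspg4, a proteoglycan of precursors, had 0 to 37.0 CPM alone and 48.1 to 67.6 CPM with neurons (adjusted p = 0.488), and Cldn11, a myelin junction protein, had 0.432 ± 0.607 CPM (SD, n = 4) and 10.2 ± 9.49 CPM (SD, n = 3) (adjusted p = 0.665). The endothelial markers Flt1 and Kdr, receptors for vascular growth factor, had overlapping ranges (adjusted p = 0.984 and 0.997), and 1 fibroblast marker passed the filter and was not called. Border macrophage markers summed to 1145 to 1611 CPM alone and 1700.3 to 2032 CPM with neurons, ranges apart, and Pf4 rose among 10 tested. Mrc1, the mannose receptor, had 316 ± 26.0 CPM (SD, n = 4) alone and 193 ± 72.7 CPM (SD, n = 3) with neurons (adjusted p = 0.444), and Siglec1, sialoadhesin, had 0.235 to 16.6 CPM alone and 17.8 to 40.6 CPM with neurons (adjusted p = 0.732). Of neutrophil and monocyte markers 3 were tested and none called, Csf3r having 14.9 to 66.9 CPM alone and 34.6 to 105 CPM with neurons (adjusted p = 0.582). The part of these cell types in the results was not tested.

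Several groups of genes with known roles in microglia showed no call. Of 44 cell cycle genes none passed, yet 34 of the 40 with at least 10 CPM had a negative value (median −0.72). Ccnd1, the G1 cyclin D1, had 1306, 1390.5, 1837 and 355 CPM alone and 328, 362 and 205 CPM with neurons, where the fourth library of microglia alone fell within the co-culture range (log2 fold change −2.03, adjusted p = 0.0614). Mcm7, of the replicative helicase, had 201, 176, 262 and 122 CPM alone and 50.8 ± 29.3 CPM (SD, n = 3) with neurons (log2 fold change −1.91, adjusted p = 0.0614). Mki67, the proliferation antigen, had 66.6 to 129 CPM alone and 23.6 to 98.5 CPM with neurons (log2 fold change −0.62, adjusted p = 0.892).

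Disease-associated microglia genes had 7 positive and 17 negative values among 24 of at least 10 CPM (median −0.16), with no call among 26. Apoe, the apolipoprotein that carries lipid between brain cells, was the same within its spread, at 13077 ± 1709.6 CPM (SD, n = 4) alone and 12748 ± 2828 CPM (SD, n = 3) with neurons (log2 fold change −0.04, SE 0.27). Trem2, the lipid receptor, had 637 to 991 CPM alone and 520.0 to 849 CPM with neurons (log2 fold change −0.20, SE 0.27). Lpl, lipoprotein lipase, had 8089, 6384, 8732 and 5203 CPM alone and 2507, 4774 and 3106 CPM with neurons, ranges apart without passing (log2 fold change −1.04, adjusted p = 0.151). Cd52, a surface glycoprotein, had 377 to 1063 CPM alone and 1254 to 1551 CPM with neurons (log2 fold change 1.05, adjusted p = 0.128). Sterol and fatty acid synthesis and lipid efflux genes had 20 negative values of 29 (median −0.32) and no call among 38; Scd2, a fatty acid desaturase, had 257 to 401 CPM alone and 99.5 to 197 CPM with neurons (log2 fold change −1.12, adjusted p = 0.144).

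Antigen presentation genes had 11 positive values of 18 (median 0.75) and no call among 23. Tap1, the peptide transporter, had 36.1 to 62.7 CPM alone and 110.0 to 185 CPM with neurons (log2 fold change 1.44, adjusted p = 0.0739), and H2-D1, a class I heavy chain with similar family members, had 612 to 1010.2 CPM alone and 1312 to 1907 CPM with neurons (log2 fold change 0.98, adjusted p = 0.111). Complement components and receptors had 10 positive values of 12 (median 0.43) and no call among 15; Itgb2, the integrin β2 chain, had 107 to 233 CPM alone and 274 to 388 CPM with neurons (adjusted p = 0.195). Phagocytic and scavenger receptors were evenly split, with 14 positive and 17 negative values of 31 (median −0.08) and no call among 32. Fcgr1, the high-affinity receptor for immunoglobulin G, had 24.5 to 95.8 CPM alone and 147 to 284 CPM with neurons (log2 fold change 1.62, adjusted p = 0.0987), and Syk, the kinase that such receptors use, had 86.1 to 180.2 CPM alone and 230.5 to 263 CPM with neurons (adjusted p = 0.311). The class I, complement and Fc genes named here had ranges apart between the groups and still missed the threshold. They were named for the smallest p of their lists, which favours ranges apart. Of members with at least 10 CPM, 6 of 18 antigen presentation and 4 of 12 complement genes were apart and higher. Of 31 phagocytic and scavenger receptors, 2 were apart and higher and 2 apart and lower. Over all genes of that level the shares were 6.07% higher and 6.36% lower.

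Lysosome and autophagy genes had 17 positive values of 48 (median −0.09) and no call among 50. The proton pump subunit gene Atp6v0a1, which fell, was not on that list. Ctsl, the protease cathepsin L, had 194 to 524 CPM alone and 764 to 846 CPM with neurons (log2 fold change 1.17, adjusted p = 0.155). Atp6v1a, another proton pump subunit, had 569 to 968 CPM alone and 365 to 492 CPM with neurons (log2 fold change −0.86, adjusted p = 0.292). Receptors for neuronal signals had 9 positive values of 13 (median 0.21), and Cx3cr1 was the one called among 20; Nrp1, a semaphorin receptor, had 311 to 641 CPM alone and 139.7 to 306 CPM with neurons (log2 fold change −1.08, adjusted p = 0.213). Trophic factors had 4 positive values of 9 (median −0.03) and no call among 13. Pdgfa, a growth factor for glial precursors, had 28.8 to 78.0 CPM alone and 54.3 to 191 CPM with neurons (adjusted p = 0.404), and Gdf15, a stress-induced cytokine of the TGF-β family, had 6.45 to 45.7 CPM alone and 0.181 to 4.38 CPM with neurons (adjusted p = 0.389).

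Glycolysis and hypoxia genes had 15 positive values of 28 (median 0.15) and no call among 36. Hk2, a hexokinase, had 109.6 to 177 CPM alone and 297 to 388 CPM with neurons (log2 fold change 1.22, adjusted p = 0.0704); P4ha1, a collagen prolyl hydroxylase, had 43.7 to 71.1 and 121 to 154 CPM (adjusted p = 0.101); Hif1a, the hypoxia factor, had 17.9 to 59.3 and 58.2 to 110.3 CPM (adjusted p = 0.201). Oxidative phosphorylation subunits had 19 positive values of 37 (median 0.03), with no call among 38; Sdhc, of complex II, had 159.6 ± 90.0 CPM alone and 297 ± 37.1 CPM with neurons (adjusted p = 0.397). Antioxidant genes had 19 positive values of 28 (median 0.29), Sod2 being the one called among 30. Hmox1, heme oxygenase 1, had 99.1 to 339.6 CPM alone and 156, 895 and 531 CPM with neurons (adjusted p = 0.311); Mgst1, a glutathione transferase, had 11.4 to 45.9 and 60.0 to 87.8 CPM (adjusted p = 0.251); Gpx1, a glutathione peroxidase, had 397 to 736 and 727 to 1135 CPM (adjusted p = 0.288).

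Housekeeping groups were evenly split. Ribosomal protein genes had 21 positive values of 41 (median 0.01), with Rplp2 at 517 ± 174 and 978 ± 142 CPM (adjusted p = 0.195) and Rps24 at 488 ± 196 and 791 ± 201 CPM (adjusted p = 0.418). Proteasome subunits had 16 positive values of 31 (median 0.00), with Psmb6 at 380.2 ± 56.5 and 234 ± 35.8 CPM (adjusted p = 0.389) and Psma5 at 18.3 ± 17.1 and 54.0 ± 11.1 CPM (adjusted p = 0.484). Actin nucleators, bundlers and nanotube factors had 24 positive values of 45 (median 0.00) and no call among 47; Vasp, which extends actin filaments, had 67.8 to 156 CPM alone and 190.1 to 303 CPM with neurons (log2 fold change 1.21, adjusted p = 0.149), and Marcksl1, an actin-linked membrane protein, had 91.2 to 214 and 186 to 483 CPM (adjusted p = 0.167). Unfolded protein response and heat shock genes had 12 positive values of 26 (median −0.09), with Hsp90aa1, a chaperone, at 163 to 546 CPM alone and 111 to 175 CPM with neurons (adjusted p = 0.146) and Atf4, the stress-response factor, at 147 to 183 and 62.8 to 119 CPM (adjusted p = 0.253). Immediate early genes had 9 positive values of 19 (median −0.02); Ier5 had 176 to 342 CPM alone and 84.0 to 122 CPM with neurons (adjusted p = 0.121), and Ier3 had 61.7 to 144 and 186 to 337 CPM (adjusted p = 0.186). No gene of these 5 lists was called.

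**Figure D4:**
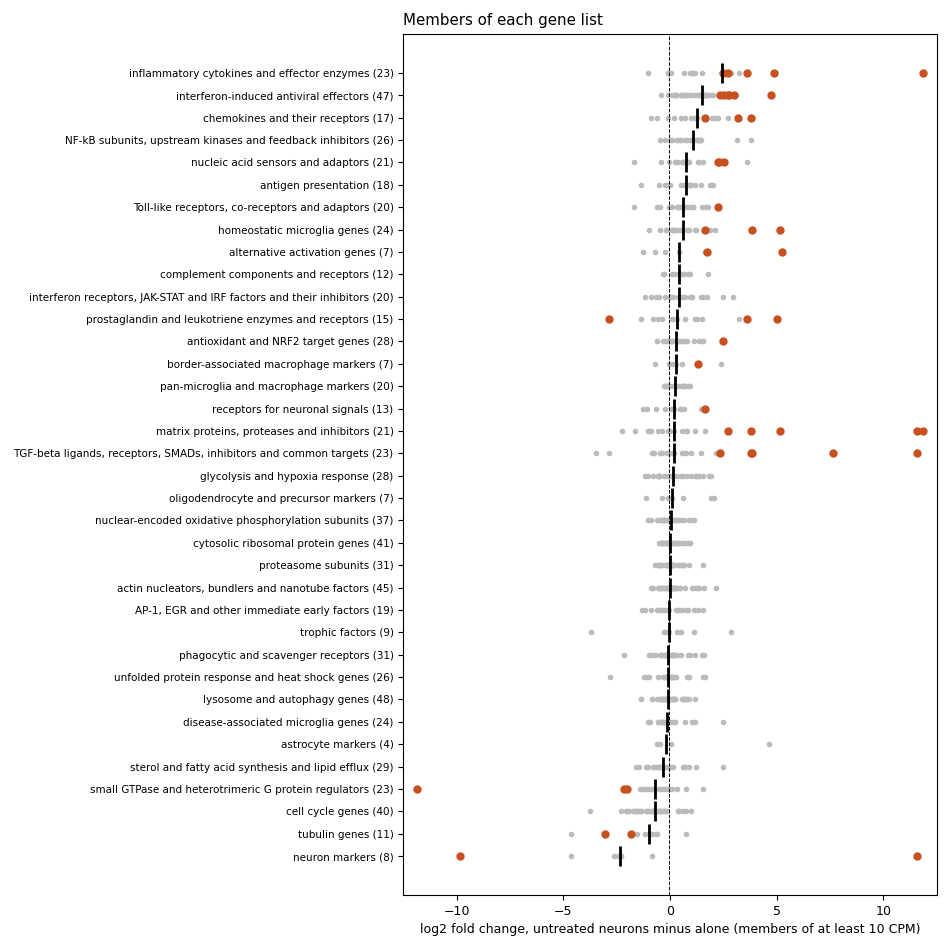
Each dot is a gene of at least 10 CPM in the list named on the left (number of such genes in parentheses), placed by its log2 fold change, untreated neurons minus alone; orange dots were called, black bars are list medians and the dashed line is the median of all genes of that level, −0.04. Medians run from −2.36 for neuron markers to 2.44 for cytokines and inflammatory enzymes, and most lists stand near the dashed line.

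The 3 co-culture libraries differed among themselves in which of these groups was highest. Of the 47 antiviral effectors of at least 10 CPM, 34 were highest in the first co-culture library, 5 in the second and 8 in the third, whereas over all genes of that level the shares were 34.2%, 34.4% and 31.4%. Of the 23 cytokine and inflammatory enzyme genes, 18 were highest in the third library, 3 in the first and 2 in the second. The 26 NF-κB genes were highest in the first library (12) or the third (14) and never in the second. On the log2(CPM + 1) scale, set against the mean of microglia alone, the median antiviral effector stood at 2.07, 1.12 and 1.28 in the 3 libraries, and the median cytokine gene at 1.33, 1.11 and 3.06. The antiviral and the cytokine genes were thus raised in different libraries to different degrees, with the second library the lowest for both. Among the 4 libraries of microglia alone, the median cytokine gene stood at 0.95 in the third library and between −0.16 and 0.00 in the others. The median antiviral effector stood at 0.68 in the first library of microglia alone and between −0.37 and −0.01 in the others.

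**Figure D5:**
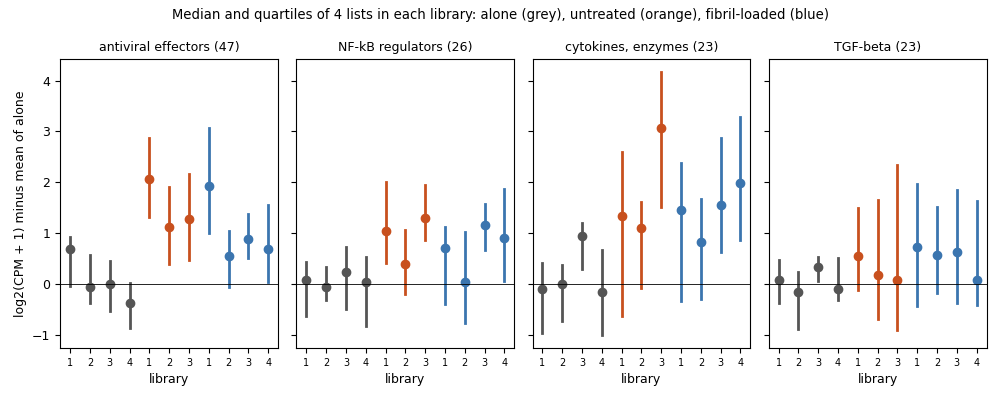
For 4 gene lists, dots give the median and lines the quartiles of log2(CPM + 1) minus the gene's mean in microglia alone, in each library of microglia alone (grey, 4), with untreated neurons (orange, 3) and with fibril-loaded neurons (blue, 4). The antiviral effectors peak in the first library of either co-culture, at 2.07 and 1.93, and the cytokine list in the third untreated library, at 3.06.

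The co-culture with fibril-loaded neurons gives a second set of values for the same genes; both comparisons share the 4 libraries of microglia alone. Compared directly in an unpaired fit, the 2 co-cultures differed in no gene at an adjusted p under 0.05 (edgeR, 0% of 11276 genes). At an unadjusted p under 0.05 there were 445 genes (3.95%). The labels do not say whether libraries of the 2 co-cultures share an origin. Spread shared by libraries of common origin would weaken an unpaired test. The genes below were selected on the untreated co-culture, whose values were extreme by that choice. A shift back in the fibril-loaded libraries can follow from that choice, and the values of these genes are a description. Of the 72 called genes, 14 had an unadjusted p under 0.05 between the co-cultures (edgeR). Cdk18, Tubb4b, Mgat5, Sco1, Spata13 and Cxcl14, described below, are among these 14, so they are not typical of the called genes. Tgfbi and Cx3cr1 are not among the 14.

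Cdk18 had 29.9, 23.2, 73.1 and 52.0 CPM with fibril-loaded neurons, above the 8.75 to 17.3 CPM with untreated neurons and below the 119 to 195 CPM of microglia alone (log2 difference between the co-cultures 1.88, SE 0.45, adjusted p = 0.965). Tubb4b had 182, 92.6, 96.9 and 148 CPM there, against 52.9 to 67.9 CPM with untreated neurons (log2 difference 1.15, SE 0.34, adjusted p = 1). Mgat5 and Sco1, with at most 0.177 CPM in any library with untreated neurons, had 4.43 to 22.5 CPM and 7.58 to 43.5 CPM with fibril-loaded neurons (both adjusted p = 0.903). Among the genes that rose, Spata13 had 33.0 to 74.0 CPM with fibril-loaded neurons, below the 109 to 169 CPM with untreated neurons (log2 difference −1.38, SE 0.52, adjusted p = 1), and Cxcl14 had 269.5 to 435 CPM against 96.5 to 282 CPM (log2 difference 0.82, SE 0.36, adjusted p = 1). Tgfbi, with 204, 393, 315 and 272 CPM, and Cx3cr1, with 2475, 1901, 1841 and 1202 CPM, were at like levels in both co-cultures (log2 differences 0.04, SE 0.37, and −0.02, SE 0.28).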

How the data were processed

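RNA of primary mouse microglia was sequenced from the 3′ end (QuantSeq 3′ mRNA FWD, per the labels' protocols). Raw read counts by gene symbol, deposited by the authors for 11 libraries, were used; a second table of normalized values was not used. Per the submitters' processing notes, mm10, STAR, Partek and DESeq2 were used, without versions or roles; the annotation and strand setting are not given in the sources used here. Counts were tested with edgeR 4.0.16 in R 4.3.3 (TMM, filterByExpr, quasi-likelihood, all 11 libraries, two-sided, Benjamini-Hochberg adjusted p under 0.05). CPM are counts scaled to a TMM library of 1000000; 3′ counts were not divided by length. List medians use tested members with a mean of at least 10 CPM over the 7 libraries. Named were all called genes and, of each list with fewer than 2 called, the 2 others with the smallest p, plus a fixed set; some genes are not reported here. Members and lists were chosen with earlier results of these data known. Symbols (16916 of 16934) and promoters were matched to RefSeq GRCm38.p6. Alternatives were DESeq2 1.42.0, limma 3.58.1 voom, other scalings and filters, 2 groups alone, a serial-number block and fits without single libraries. The floors cover counting error only, while the standard errors come from the edgeR fit and include the spread between libraries.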

Additional observations from a re-analysis of the deposited data

Results flagged for a closer look

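Of 137 measures, gene levels and library values, looked at in the 4 libraries of microglia alone, 6 had 1 library far from the other 3 by Dixon's test at the 95% level; chance flags about 1 in 20. Glul had 613 CPM in the second library against 457 to 459 CPM in the others. In the third library Nadk had 136 CPM against 72.0 to 78.7 CPM, Tlr2 had 109 CPM against 40.0 to 50.4 CPM, Siglec1 had 16.6 CPM against 0.235 to 3.00 CPM and P2ry12 had 8.22 CPM against 0 to 0.891 CPM. Cxcl9 had 6.34 CPM in the fourth library against 0 to 0.891 CPM. For Glul, Nadk and Tlr2 the high library was still below all 3 libraries with neurons.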

How the results depend on the processing

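Numbers are genes higher and lower with untreated neurons, 52 and 20 as reported. Without the low-count filter they were 155 and 79, with 5 genes higher beside fibril-loaded than untreated neurons; with at least 5 CPM on average, 35 and 12; with DESeq2, 171 and 282; with limma voom, 88 and 51; with the 2 groups alone, 28 and 13; without the 2 libraries that had the fewest genes in their group, 21 and 7, with 1 gene higher beside fibril-loaded neurons. RLE scaling gave 52 and 20. Leaving out 1 library gave 25 to 62 genes higher and 4 to 21 lower, and 0 to 1 higher between the co-cultures; the totals were 32, 36, 76 and 41 without alone libraries 1, 2, 3 and 4 and 46, 73 and 37 without co-culture libraries 1, 2 and 3, so each of the libraries alone 1, alone 2, alone 4, co-culture 1 and co-culture 3 moved the total by over 1.5 times. The cause was not tested. Of 71 named calls, 21 held in all 7 such fits, 50 were lost in at least 1 and none changed direction in any setting. Of the 9 other settings, 16 of the 71 were called in every one; DESeq2 lost 0, limma voom 12 and the 2 groups alone 34. Among 64 uncalled named genes 5 changed direction: Kdr (log2 fold change −3.84 with voom, −3.14 with the block, −6.28 without the fewest-gene libraries, and −6.79 to 0.70 over the fits without 1 library), Ccl2 (−0.10) and Cxcl9 (−5.55) without the fewest-gene libraries, and, without 1 library, Cxcl9 (−5.13 to 4.07), Apoe (−0.19 to 0.12) and Il6 (0 to 7.14). The labels give no replicate numbers. A block was made from the order of the serial numbers in the titles, which are not stated to mark a shared culture. It joined each library with untreated neurons to a library of microglia alone, whose number differs by 3, and to a fibril-loaded library. With it, 73 genes were called higher and 22 lower, keeping 64 of the 72. Deviations from the group means correlated at 0.03, −0.01 and 0.01 between the joined untreated and alone libraries. The same correlation was not computed between the joined co-culture libraries. The list medians below are log2(CPM + 1) minus the mean of microglia alone. Antiviral effector medians of untreated libraries 1 to 3 were 2.07, 1.12 and 1.28, against 1.93, 0.55 and 0.88 in their joined fibril-loaded libraries. NF-κB medians were 1.05, 0.38 and 1.30 against 0.71, 0.03 and 1.15. Cytokine medians were 1.33, 1.11 and 3.06 against 1.46, 0.82 and 1.55. The order of libraries was the same in these lists but not for TGF-β genes. Whether the joined co-culture libraries share structure was not tested. Genes under 10 CPM had a median standard error of 2.67, which limits what could be called among them.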
